A study of Mus musculus with 10 samples.

Results

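The proteasome subunit genes were taken as the protein-coding mouse genes whose symbols join Psma, Psmb, Psmc or Psmd to a number, without the immunoproteasome genes Psmb8, Psmb9 and Psmb10. These were 36 genes of the 43629 in the count tables. Of them, 16 encode the core particle (8 alpha ring and 8 beta ring genes). The other 20 are filed under the regulatory particle and comprise 6 ATPases, 11 non-ATPase subunits and 3 assembly chaperones that carry a Psmd name (Psmd5, Psmd9 and Psmd10). The data were read counts per gene from mouse skeletal muscle, where both total RNA and RNA pulled down with a home-made antibody were sequenced. The antibody recognises IMP2, an RNA-binding protein encoded by Igf2bp2. Wild-type (WT) muscle gave 3 total RNA and 2 immunoprecipitation (IP) libraries, and knockout (KO) muscle gave 3 total RNA and 2 IP libraries. Every mouse was a male C57BL/6 animal of 6 weeks on a high-fat diet for 2 weeks, so no group was on another diet. The sample labels call the knockout genotype IMP2 null, while the series text speaks of a muscle-specific knockout, and the Cre driver and the deleted part are not given in the sources used here. The labels do not tie the libraries of a group to different animals, and the spread behind each p-value is that of these libraries, which may be technical.

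The proteasome is the protease that degrades proteins tagged with ubiquitin. Its core particle is a barrel of stacked rings: the outer alpha rings gate the entrance, and the inner beta rings carry the protease sites on the subunits encoded by Psmb5, Psmb6 and Psmb7. The regulatory particle caps the barrel, where ATPases (Psmc genes) unfold the substrate and non-ATPase subunits (Psmd genes) bind and remove ubiquitin. In skeletal muscle the ubiquitin-proteasome system is known for its part in the loss of muscle protein during atrophy. Several of its subunit genes are known targets of the transcription factor NRF1, encoded by Nfe2l1.

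The promoters of 29 of the 36 members were found in the RefSeq table for GRCm38.p6. In the 250 bases before each start, the letters TGACNNNGC, the core of the antioxidant response element bound by the NRF factors, were searched on both strands together with CCAAT, the CCAAT box bound by the factor NF-Y. The first motif was present in 5 members (Psmb5, Psmb6, Psmc6, Psmd9 and Psmd12) and in 10.1% of 27025 promoters of the same length, and CCAAT was present in 12 of 29 members and in 34.5% of those promoters. No member held both, and 3.3% of all promoters did. A match describes letters only. The windows below are those of Psmb5, Psmb6, Psma2 and Psmd4, which are described further on and represent both motifs. A relation between motif and level was not tested. They are given 5′ to 3′ on the gene's strand with the motif in capitals (TGACNNNGC in Psmb5 and Psmb6, CCAAT in Psma2 and its reverse complement in Psmd4), and in that order they lie at chr14:54617996-54618245 (minus strand), chr11:70525107-70525356 (plus), chr13:14612992-14613241 (plus) and chr3:95042615-95042864 (minus).
Psmb5: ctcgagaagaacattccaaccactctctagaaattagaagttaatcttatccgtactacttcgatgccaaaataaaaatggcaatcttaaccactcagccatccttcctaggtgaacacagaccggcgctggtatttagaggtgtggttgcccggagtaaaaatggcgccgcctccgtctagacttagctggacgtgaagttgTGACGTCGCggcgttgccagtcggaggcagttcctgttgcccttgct
Psmb6: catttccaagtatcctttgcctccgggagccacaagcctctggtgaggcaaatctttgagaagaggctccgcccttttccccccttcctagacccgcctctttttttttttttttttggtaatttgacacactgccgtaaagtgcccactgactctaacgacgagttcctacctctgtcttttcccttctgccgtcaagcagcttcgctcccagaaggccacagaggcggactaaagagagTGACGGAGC
Psma2: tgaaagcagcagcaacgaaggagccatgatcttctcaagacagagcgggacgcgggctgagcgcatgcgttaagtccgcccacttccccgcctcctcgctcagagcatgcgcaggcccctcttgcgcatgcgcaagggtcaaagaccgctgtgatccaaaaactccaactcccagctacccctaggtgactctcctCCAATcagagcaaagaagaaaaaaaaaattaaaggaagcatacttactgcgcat
Psmd4: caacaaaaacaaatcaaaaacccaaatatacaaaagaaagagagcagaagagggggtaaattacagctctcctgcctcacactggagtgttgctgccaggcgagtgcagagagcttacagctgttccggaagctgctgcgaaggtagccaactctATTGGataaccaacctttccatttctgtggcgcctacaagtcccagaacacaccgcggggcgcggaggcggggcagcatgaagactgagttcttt

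Counts assigned to genes came to 9691580 to 14809788 in the total RNA libraries and to 917462 to 4037480 in the IP libraries. CPM here means counts relative to library size, adjusted with the TMM factors given below unless library size alone is named. The targeted gene Igf2bp2 was at 2.51, 2.86 and 3.35 CPM (35, 37 and 48 reads) for WT total RNA and at 2.52, 1.88 and 2.47 CPM (21, 19 and 21 reads) for KO total RNA, a log2 difference of -0.355 ± 0.28 (SE, edgeR adjusted p = 0.897). The IP libraries held 28 and 4 of its reads for WT against 9 and 25 for KO. With TMM factors the genotypes overlapped in both, in total RNA only by 2.52 CPM in KO against 2.51 CPM in WT. Relative to library size alone, every WT total RNA library lay above every KO one, as 13.6% of all genes tested did. The IP libraries overlapped on that scale as well. With no call in either, this gene does not settle the labels, and WT and KO below are the groups as labelled. The summed level of 8 skeletal muscle markers was between 59000 and 234300 CPM in every library. The sum of 5 pancreatic islet genes reached 2258 CPM in KO total RNA library 1 against 1.003 CPM or less in its 5 counterparts, and 5 adipocyte genes reached 1186 CPM in WT total RNA library 2 against 283.4 to 473.5 CPM in the other total RNA libraries. The IP libraries also held them: islet genes summed to 40.8 and 319.1 CPM for WT IP and to 350.7 and 132.8 CPM for KO IP, and adipocyte genes to 455.9 and 794 CPM and to 602.4 and 457.2 CPM. Their part in the subunit values was not tested. Without both total RNA libraries named, the median log2 difference in total RNA, described further on, was 0.21 in each particle, and no member was called. Library sizes were adjusted with edgeR's TMM factors, which were lowest in KO total RNA library 3 (0.7935) and highest in KO IP library 2 (1.1953) and WT total RNA library 3 (1.167).

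Of the 36 members, 34 were expressed above the filter on low counts in every comparison. The exceptions were Psma8, an alpha subunit known from testis, and Psmb11, a beta subunit known from the thymic cortex. For Psma8 the WT total RNA libraries held 3, 0 and 1 reads, the KO total RNA libraries 1, 2 and 0, and the IP libraries none. Psmb11 had no count in any library, which allows up to 0.203 to 3.27 CPM per library at 3 counts. The markers of their home tissues were near the floor as well: 2 testis germ cell genes summed to at most 1.245 CPM, and 2 thymic epithelial genes to 0 in 9 libraries and to 0.1174 CPM in KO total RNA library 3.

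Levels between genes were compared as CPM per kb of exon. In WT total RNA the median of the 14 expressed core genes was 30.3 and that of the 20 regulatory genes was 38.5 CPM per kb. By all exons the highest gene was Psmc5, an ATPase of the regulatory particle, at 108.1 ± 15.36 CPM per kb (SD, n = 3). It was followed by the alpha subunit gene Psma6 at 81.5 ± 18.24 and the ATPase gene Psmc3 at 80.83 ± 13.37, with SD ranges that overlap. The lowest were the assembly chaperone gene Psmd5 at 2.741 ± 0.3351 and, in the core, Psma3 at 10.33 ± 1.14 and Psmb3 at 11.17 ± 0.9323 CPM per kb. Of the 3 protease subunits Psmb5 was at 49.44 ± 3.608, Psmb6 at 71.43 ± 7.966 and Psmb7 at 58.54 ± 10.27 CPM per kb. The SD ranges of Psmb5 and Psmb6 are apart, and that of Psmb7 overlaps both. These SDs are spreads between libraries. All genes were measured in the same libraries, so overlapping SD ranges do not show that genes have equal levels. These levels depend on the length used. With the longest transcript in place of all exons Psmb5, Psmb6 and Psmb7 were at 49.44, 138.4 and 70.29, and the medians became 58 for the core and 52.7 for the regulatory particle. The order changed too: Psmb6 ranked 1, Psmb4 2 and Psmc3 3, with Psmc5 at rank 4 and Psma6 at rank 7. The lowest expressed core gene was then Psma5, at 12.52, and Psmd5 stayed lowest of all expressed genes. Reads that align to several places were not counted. Of the 36 members, 15 share a stretch of at least 100 bases at 95% identity or more with another annotated gene. Examples are Psma3, Psma5, Psmb5, Psmc1 and Psmd2 with processed pseudogenes, and the levels of such members may be too low. For Psmc3, Psmd13 and Psmd1 the only such gene (Slc39a13, Sirt3 and Gm21972) overlaps the member itself, so it need not be a copy elsewhere.

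**Figure D1:**
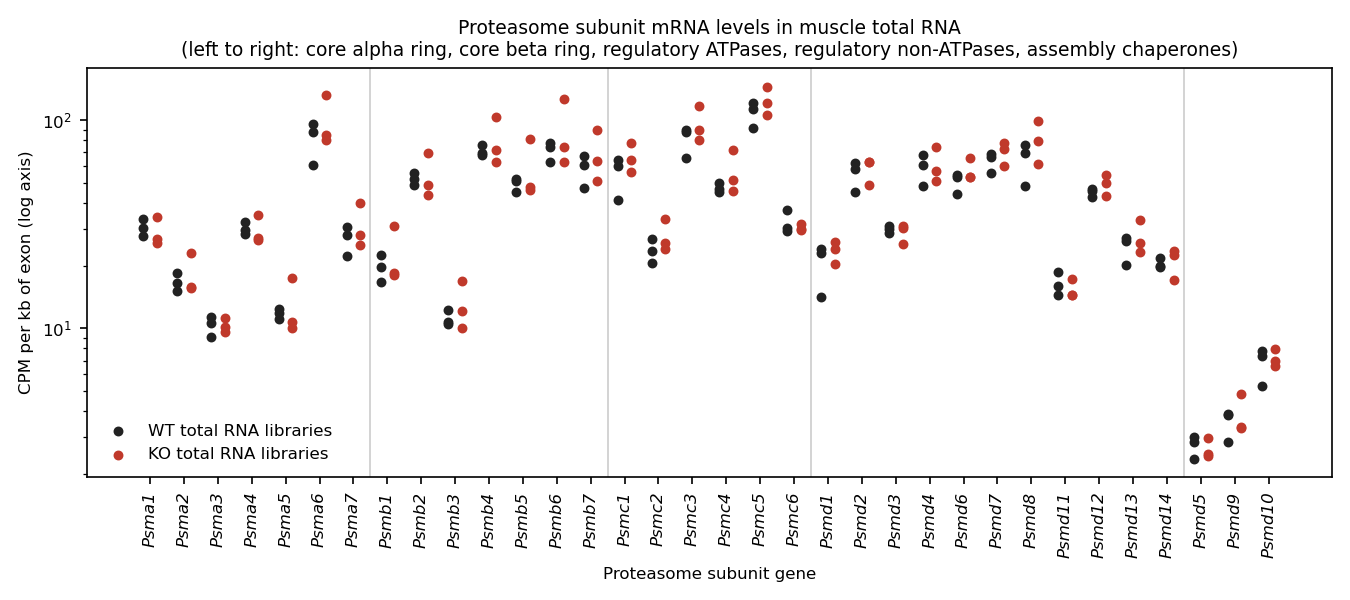
Level of each of the 34 expressed proteasome subunit genes in total RNA, in CPM per kb of exon on a log axis. Each point is 1 library (3 WT in black, 3 KO in red), and genes are grouped by their place in the particle. By this length Psmc5 and Psma6 stand highest and Psmd5 lowest, and the WT and KO points overlap for every gene.

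The genotypes were first compared in total RNA, which asks whether subunit mRNA levels differ between muscle labelled wild type and IMP2 knockout. No gene of the 13169 tested passed a Benjamini-Hochberg adjusted p of 0.05 in the quasi-likelihood test of edgeR, so the background of calls was 0% and no subunit was called. By other tools, DESeq2's Wald test called 5 genes and limma-voom 0, with no member among them. At an unadjusted p under 0.05 there were 267 genes higher in KO (2.03%) and 302 lower (2.29%), again with no member. No subunit had groups that did not overlap, which 5.06% of all genes showed with KO higher and 4.56% with KO lower. The log2 difference, KO minus WT, was above 0 for 27 of 34 subunits against 48% of all genes, with a median of 0.17 in the core and 0.13 in the regulatory particle and of -0.012 over all genes.

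Library 3 of each genotype weighed on these medians. Summed over the core genes, WT total RNA libraries gave 1263, 1162 and 1051 CPM and KO libraries 1156, 1037 and 1703 CPM, or 1159 ± 106 against 1299 ± 355.2 (SD, n = 3). KO library 3 stands above all others, while KO libraries 1 and 2 lie within or below the WT range. The regulatory genes summed to 2560, 2530 and 2076 CPM in WT and to 2626, 2258 and 3016 CPM in KO, with WT library 3 lowest and KO library 3 highest. KO library 3 was the highest total RNA library for 13 of 14 core and 14 of 20 regulatory genes, against 23.4% of all genes. WT library 3 was the lowest for 6 of 14 core and 15 of 20 regulatory genes, against 29.3% of all genes. These orders depend on scaling. By library size alone WT library 3 was lowest for 1 core and 3 regulatory genes (8.47% of all genes). It was then highest for 6 and 6 (56.4% of all genes), and KO library 3 for 8 and 9 (8.4%). The regulatory sums were then 2419 CPM in WT library 3 and 2392 CPM in KO library 3, and the core sums 1224 and 1350 CPM. With TMM factors the muscle marker sum was also lowest in WT library 3 (98250 CPM, beside 171800 CPM or more in the 5 others) and highest in KO library 3 (234300 CPM), as was the sum of 2 fibroblast genes, at 734.8 and 2096 CPM. Single genes of these lists did not all follow. By the same scaling Ttn was lowest in KO library 3, and Pdgfra was higher in WT library 1 than in KO library 3. The part of these markers in the subunit values was not tested, and in bulk tissue fewer cells of a type and less RNA per cell cannot be told apart. Without KO library 3 the core median was -0.07, with 1 of 14 genes above 0, and the regulatory median was 0.03, with 13 of 20 above 0. Without WT library 3 the medians were 0.11 and 0.04, beside 0.02 over all genes. Scaled by library size alone, the medians were -0.06 and -0.09, and that scaling moved the median of all genes to -0.23. The ratio of core to regulatory sums does not depend on scaling; it was 0.4933, 0.4591 and 0.5062 in WT and 0.4404, 0.4592 and 0.5646 in KO, so here too KO library 3 was the highest and the groups overlapped.

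**Figure D2:**
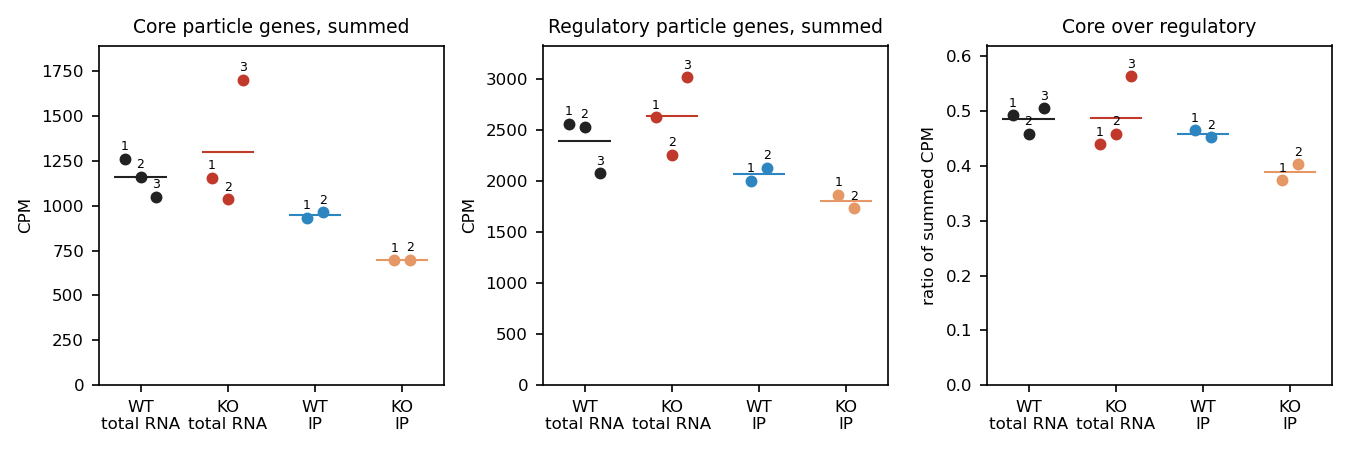
Summed CPM, scaled with TMM factors, of the core genes (left) and the regulatory genes (middle) and their ratio (right) in every library; points are libraries with their number, lines are group means. KO total RNA library 3 stands highest in all panels, at 1703 and 3016 CPM and a ratio of 0.5646, and the KO IP libraries have the lowest core sums and ratios.

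The members with the smallest p in total RNA were Psmd8, Psmc4, Psmc2, Psmc1, Psmc3 and Psmb6, that is 4 of the 6 ATPases, a non-ATPase subunit and a protease subunit. Psmd8, a non-ATPase subunit, was at 212.3, 232.7 and 148.1 CPM in WT and at 241.7, 187.0 and 303.3 CPM in KO, a log2 difference of 0.299 ± 0.229 (SE, edgeR adjusted p = 0.897). Psmb6, the caspase-like protease subunit whose promoter is shown above, was at 145.7, 138.4 and 117.0 CPM in WT and at 139.4, 117.2 and 237.3 CPM in KO. Its high mean in KO comes from library 3, since KO libraries 1 and 2 fall inside the WT range. The same shape is seen in Psmb5, the chymotrypsin-like subunit, at 46.83, 45.76 and 40.75 CPM in WT and 43.01, 41.53 and 72.81 CPM in KO. Psmb7, the trypsin-like subunit, was at 230.3, 208.9 and 161.6 CPM in WT and 217.2, 173.5 and 306.7 CPM in KO. For all 3 protease subunits KO libraries 1 and 2 lie inside the WT range and library 3 above it.

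The 4 ATPases had log2 differences of 0.225 to 0.251. Psmc4 was at 107.3, 101.0 and 97.9 CPM in WT and at 111.0, 98.3 and 154.4 CPM in KO. Psmc2 was at 134.5, 118.6 and 103.6 CPM in WT and at 129.0, 120.9 and 168.2 CPM in KO. In both, KO library 3 lies above the WT range, as does library 1 of Psmc4, and the remaining KO values lie inside it. Psmc1 was at 116.6, 124.3 and 79.83 CPM in WT and 124.0, 109.2 and 149.7 CPM in KO, and Psmc3 at 234.4, 227.0 and 170.7 CPM in WT and 234.0, 208.3 and 303.1 CPM in KO. Both have their lowest value in WT library 3. Psmd14, the deubiquitinase of the regulatory particle, differed little: 61.15, 55.64 and 55.96 CPM in WT and 63.19, 48.06 and 66.35 CPM in KO, a log2 difference of 0.033 ± 0.161 (SE). The ubiquitin-binding subunits were also close to 0, with Psmd2 at 0.064 ± 0.18 and Psmd4 at 0.03 ± 0.196.

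**Figure D3:**
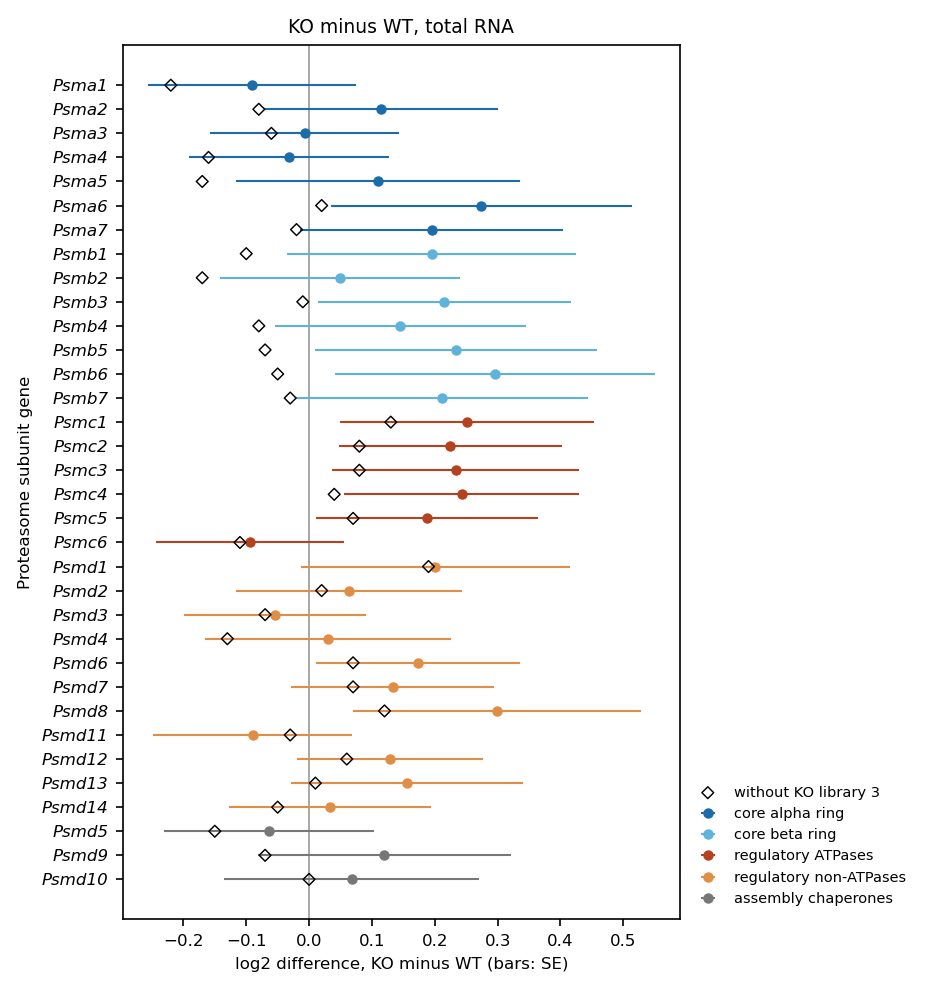
Log2 difference in total RNA, KO minus WT, for each of the 34 tested subunit genes; circles are estimates from all 6 libraries with SE bars, coloured by role, and open diamonds are the estimates without KO library 3. With all libraries 27 genes lie above 0, and without KO library 3 the core diamonds shift left, to a median of -0.07.

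The second comparison set the IP of WT muscle against that of KO muscle. In the quasi-likelihood test of edgeR with adjusted p none of 10730 genes passed (0%), and no subunit was called. By other tools 57 genes were called with DESeq2's Wald test and 3 with limma-voom, with no member among them. At an unadjusted p under 0.05, 518 genes were higher in WT IP (4.83%) and 610 lower (5.68%). Of the 34 subunits, 6 were higher by that measure (the core genes Psma2, Psmb4, Psmb5 and Psmb7 and the regulatory genes Psmc3 and Psmd4) and none lower. The groups did not overlap, WT above KO, in 11 of 14 core and 5 of 20 regulatory genes, against 20.6% of all genes tested, and no subunit had KO above WT, which 20.5% of all genes had. All 7 expressed beta ring genes were in the first class, with a median log2 difference of 0.444. The median was 0.379 over the core and 0.183 over the regulatory particle, beside -0.012 over all genes, and the median SE of a single gene was 0.28 in the core and 0.259 in the regulatory particle.

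Scaling bears on these counts. With library size alone, 6 core genes had WT above KO and 1 below, and 5 regulatory genes had WT above KO and 2 below, against 13.3% above and 27.8% below over all genes. That scaling moved the median of all genes to -0.16 and gave medians of 0.24 in the core and 0.04 in the regulatory particle. Without KO IP library 2 the regulatory median was 0 and the core median 0.35. Summed over the core genes the IP gave 932.8 and 964.6 CPM in WT and 697.5 and 699.5 CPM in KO, and over the regulatory genes 2003 and 2131 CPM in WT and 1866 and 1733 CPM in KO. The core to regulatory ratio, free of scaling, was 0.4658 and 0.4527 for the WT libraries against 0.3738 and 0.4036 for the KO libraries, so both KO values lie below both WT values. The fibroblast genes summed to 2149 and 1461 CPM over the WT IP libraries and to 3892 and 3429 CPM over those of KO. That sum is mostly Col1a1, with 4998 and 3639 reads in WT and 4013 and 16239 in KO. Pdgfra, the other gene, had 112 and 112 reads in WT and 38 and 288 in KO. Relative to library size the KO values of Pdgfra lay on both sides of WT. The muscle markers summed to 83090 and 96800 CPM in WT against 78740 and 59000 CPM in KO. The part of these markers was not tested. With 2 libraries a group no exact permutation test of this ratio can pass 0.05.

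Psma2, an alpha ring subunit, had the smallest p. It was at 52.99 and 75.58 CPM in WT IP and at 32.67 and 33.61 CPM in KO IP, a log2 difference of 0.945 ± 0.279 (SE, edgeR unadjusted p = 0.00391, adjusted p = 0.254). Its gene (chr13:14613240-14674236 on GRCm38) overlaps AW209491 on the same strand, and reads that fit both genes may be left out of both as ambiguous. Psmb4, a structural beta subunit (chr3:94884093-94886961), was at 145.9 and 150.4 CPM in WT IP and at 85.51 and 95.64 CPM in KO IP, a log2 difference of 0.693 ± 0.226 (adjusted p = 0.292). In both genes the lower WT library lies above the higher KO library.

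Among the protease subunits, Psmb5 (chr14:54614119-54618022) was at 22.29 and 19.09 CPM in WT IP and at 11.53 and 8.506 CPM in KO IP. These values rest on 53 and 49 counts in WT and on 12 and 41 in KO, and the log2 difference was 1.099 ± 0.429 (SE, edgeR adjusted p = 0.377). Psmb7 (chr2:38588036-38644087), which overlaps Nek6 on the other strand, was at 99.26 and 104.8 CPM in WT IP and at 88.39 and 49.79 CPM in KO IP, with KO library 2 clearly the lowest. Psmb6 (chr11:70525367-70527858) was at 147.6 and 125.4 CPM in WT IP and at 91.27 and 106.8 CPM in KO IP. All 3 were thus higher in each WT library than in each KO library, and none passed the adjusted test.

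In the regulatory particle, Psmd4, a ubiquitin receptor (chr3:95032694-95042614), was at 188.0 and 150.8 CPM in WT IP and at 105.7 and 123.4 CPM in KO IP, a log2 difference of 0.546 ± 0.231 (SE, edgeR adjusted p = 0.424). The ATPase gene Psmc3 (chr2:91054009-91066369) was at 179.2 and 155.8 CPM in WT IP and at 116.3 and 120.9 CPM in KO IP. Psmd14 was at 37.43 and 44.8 CPM in WT IP and at 33.63 and 24.27 CPM in KO IP. These groups do not overlap either. The ubiquitin-binding scaffold subunit Psmd2 shows the other case, with 79.91 and 87.27 CPM in WT IP and 98.0 and 64.52 CPM in KO IP, where the KO libraries lie on both sides of WT.

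**Figure D4:**
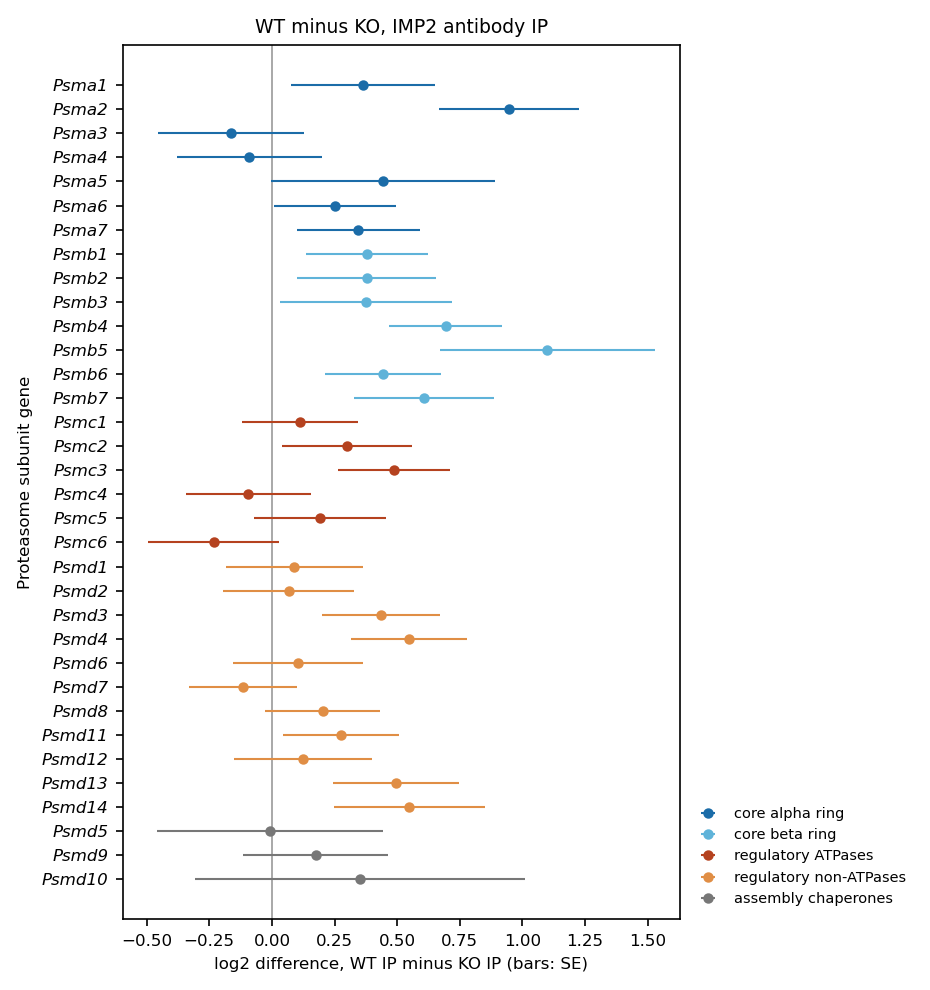
Log2 difference in the IP, WT minus KO, for each of the 34 tested subunit genes with SE bars, coloured by role. 28 genes lie above 0, including all 7 beta ring genes, and Psmb5 has the largest estimate at 1.099 with a wide error.

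The third question was whether subunit mRNAs are over- or under-represented in the IP relative to total RNA of the same genotype. In WT muscle 5325 of 14399 genes were called (37%), 17.6% higher and 19.4% lower in the IP. Of 34 subunits 3 were called higher and 11 lower. The core had 0 higher and 4 lower and the regulatory particle 3 higher and 7 lower. IP and total RNA libraries did not overlap, IP lower, in 5 core and 11 regulatory genes against 32.5% of all genes, and with IP higher in 5 regulatory genes against 27.4%. The particles had median log2 differences of -0.107 and -0.375 beside -0.049 over all genes.

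In KO muscle 5251 genes were called (36.5%), 17.7% higher and 18.8% lower, and of the subunits 2 were higher and 20 lower. The core had 0 higher and 8 lower and the regulatory particle 2 higher and 12 lower. The groups did not overlap, IP lower, in 12 core and 15 regulatory genes against 31.3% of all genes, and with IP higher in 2 regulatory genes against 29.9%. The medians were -0.74 and -0.783, beside 0.035 over all genes. With library size alone 4 members were called higher and 11 lower, where 5706 of 14399 genes were called and 74.8% of these were higher. The median of all genes was then 0.47, with the particles at -0.75 and -0.81 relative to it. Without KO IP library 2, 10 members were called, all lower, and 2148 genes in all. Of the members, 11 were lower and 2 higher in both genotypes, and 9 were called lower in KO and not in WT. Over all genes these shares were 13.4%, 10.7% and 5.38%, and both comparisons come from the same fit. The skeletal muscle marker sum was lower in every IP library (59000 to 96800 CPM) than in every total RNA library (98250 CPM or more). Single genes of that list did not all follow the sum. Relative to library size, Mb and Des stood higher in every WT IP library than in every WT total RNA library. In KO the fibroblast sum was higher in the IP (3892 and 3429 CPM) than in total RNA (1184 to 2096 CPM). The part of these markers in the subunit values was not tested.

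The largest decreases in WT were in the scaffold and lid subunits Psmd1, Psmd2 and Psmd12 and in the protease subunit Psmb5. Psmd1, a scaffold of the regulatory base (chr1:86064387-86139151), was at 174.6, 166.5 and 102.7 CPM in WT total RNA and at 47.95 and 55.32 CPM in WT IP, and fell by 1.518 ± 0.262 on the log2 scale (SE, edgeR adjusted p = 0.000547). In KO it was at 189.3, 147.3 and 175.1 CPM in total RNA and at 57.65 and 41.49 CPM in the IP. Psmd2 (chr16:20651652-20663414) was at 251.6, 234.2 and 183.0 CPM in WT total RNA and, as given above, at most 87.27 CPM in WT IP, with log2 differences of -1.415 in WT and -1.554 in KO. Every IP library lies below every total RNA library for both genes, and Psmd1, Psmd2, Psmd12 and Psmb5 were called lower in both genotypes under every alternative run.

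Psmd12, a lid subunit, was at 123.0, 120.4 and 112.6 CPM in WT total RNA against 50.47 and 54.54 CPM in WT IP, and at 132.0, 114.1 and 144.4 CPM in KO total RNA against 57.65 and 40.87 CPM in KO IP. Its log2 differences were -1.176 in WT and -1.44 in KO. Psmb5 had log2 differences of -1.104 ± 0.273 in WT (SE, edgeR adjusted p = 0.00618) and -2.475 ± 0.316 in KO (adjusted p = 7.05e-05), the lowest of the subunits in KO. Psmb7 came next after Psmd1 there, with -1.796 ± 0.303 in KO and -0.973 ± 0.286 in WT, and its WT call was lost when either WT IP library was left out, at differences of -0.95 without library 1 (adjusted p = 0.0906) and -1.09 without library 2 (adjusted p = 0.0622).

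The 2 subunits called higher in the IP in both genotypes belong to the regulatory particle. Psmd11, a lid subunit (chr11:80428615-80473248), was at 92.0, 101.3 and 118.8 CPM in WT total RNA and at 201.0 and 232.2 CPM in WT IP, and at 110.3, 92.66 and 91.83 CPM in KO total RNA and 147.0 and 205.2 CPM in KO IP. The log2 difference was 1.058 ± 0.204 in WT (SE, edgeR adjusted p = 0.00122) and 0.853 ± 0.206 in KO (adjusted p = 0.00556). Psmd7, a lid subunit that pairs with the deubiquitinase (chr8:107580381-107588464), was at 155.8, 149.7 and 125.6 CPM in WT total RNA against 225.9 and 254.4 CPM in WT IP. In KO it was at 163.9, 135.8 and 174.9 CPM in total RNA against 236.4 and 279.4 CPM in the IP. All IP values of both genes lie above all total RNA values. Psmd11 shares near-identical stretches with 190 other annotated genes. The calls were lost in part when 1 library was left out: in KO, Psmd11 and Psmd7 had adjusted p of 0.146 and 0.142 without KO IP library 2. In WT, Psmd7 had adjusted p = 0.113 without WT IP library 2. The third gene higher in WT, the assembly chaperone gene Psmd9, was at 27.71, 28.09 and 20.59 CPM in total RNA and at 34.07 and 47.14 CPM in the IP (log2 difference 0.675, adjusted p = 0.0403), and that call was lost in 12 of 19 alternatives, among them limma-voom at a difference of 0.68 (adjusted p = 0.0517) and the fit without WT IP library 2 at 0.34 (adjusted p = 0.437).

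**Figure D5:**
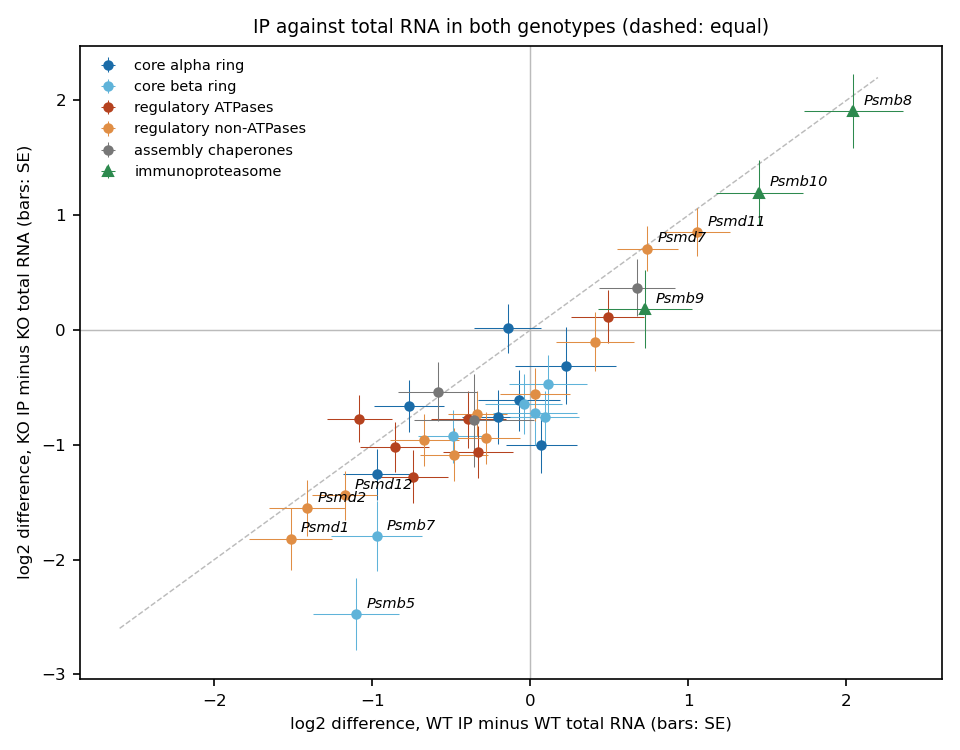
Log2 difference between IP and total RNA in WT (horizontal) and KO (vertical) for each of the 34 subunit genes, with SE bars, coloured by role, and for the 3 immunoproteasome genes as triangles; the dashed line marks equal values. Most subunits lie below the dashed line, Psmb5 furthest, and the immunoproteasome genes Psmb8 and Psmb10 lie at the upper right, with Psmb9 nearer to 0.

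Whether the IP over total RNA difference itself differed between genotypes was tested as an interaction over all 10 libraries. The WT difference exceeded the KO difference for 30 of 34 subunits against 48.7% of all genes. Only 1 gene of 14399 was called (0.00694%), and no subunit. At an unadjusted p under 0.05 there were 5 subunits with a larger WT difference and none with a smaller one, where all genes had 5.38% and 6.45%. The median interaction was 0.568 in the core and 0.34 in the regulatory particle, beside -0.023 over all genes. Psmb5 had the largest estimate, 1.371 ± 0.411 (SE, edgeR unadjusted p = 0.00485, adjusted p = 0.342), followed by Psma2 at 1.071 ± 0.329, Psmb4 at 0.852 ± 0.312 and Psmb7 at 0.823 ± 0.401. Psmc3 was at 0.733 ± 0.311 and the lid subunit Psmd13 at 0.664 ± 0.305. KO total RNA library 3 weighs on these estimates as well, since without it the core median was 0.31. With library size alone the medians were 0.19 and -0.02 with all genes at -0.4. The interaction shares its libraries with the IP and total RNA comparisons above and is not a separate line of evidence.

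The immunoproteasome genes Psmb8, Psmb9 and Psmb10 encode the interferon-inducible protease subunits that replace those of Psmb5, Psmb6 and Psmb7 and are characteristic of immune cells. Of the counts of these 6 genes, Psmb8, Psmb9 and Psmb10 made up 8.22%, 7.95% and 8% in total RNA of WT muscle and 5.7%, 7.72% and 6.81% in that of KO muscle. Their share was 27.3% and 25.8% in the IP of WT muscle and 26.3% and 34.1% in that of KO muscle, and the Wilson 95% interval of the shallowest library, KO IP 1, ran from 21.4% to 31.9% (counting error only). Psmb8 was at 9.523, 6.945 and 6.21 CPM in WT total RNA and at 33.65 and 28.83 CPM in WT IP, a log2 difference of 2.044 ± 0.314 (SE, edgeR adjusted p = 0.000237), and of 1.905 ± 0.323 in KO. Psmb10 was higher in the IP too, by 1.45 in WT and 1.196 in KO, while Psmb9 did not pass (0.725 and 0.182). A sum of 5 leukocyte marker genes ranged from 94.27 to 192.3 CPM in total RNA and from 119.6 to 275.5 CPM in the IP; its part was not tested.

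Beyond the subunits, 40 genes of the pathway were listed by role, and none was called between genotypes in total RNA or in the IP. Nfe2l1, the factor that drives proteasome genes, was at 1047.0, 1039.0 and 749.3 CPM in WT total RNA and at 1102.0, 903.6 and 939.2 CPM in KO total RNA, a log2 difference of 0.049 ± 0.191 (SE). In the IP it was lower in both genotypes, by log2 differences of -0.904 and -1.326. Of the 6 genes in this transcription group, 4 were called lower in the IP in each genotype, where all genes had 19.4% in WT and 18.8% in KO. The chaperone gene Pomp, which completes the core, was not called: 0.376 ± 0.22 in WT and -0.251 ± 0.228 in KO. Of the 5 core assembly factors 2 were called higher in WT and none in KO, where all genes had 17.6% and 17.7%. Of the 10 shuttle and segregase genes 2 were higher and 2 lower in each, near the shares over all genes. Between the IP of both genotypes the list's smallest p belonged to Sem1, a small regulatory particle subunit outside the rule by name, with 161.9 and 203.0 CPM in WT and 89.35 and 101.4 CPM in KO (log2 difference 0.918, edgeR adjusted p = 0.203). Nfe2l2, which encodes another factor that binds antioxidant response elements, moved the other way, at 29.02 and 14.41 CPM in WT and 40.35 and 54.56 CPM in KO (log2 difference -1.169, adjusted p = 0.253).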

How the data were processed

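RNA was sequenced from 10 muscle libraries. The authors' deposited files hold 1 whole-number read count per Ensembl gene and library; STAR and HTSeq with mm10 / GRCm38 were used per the submitters' processing notes, and the tool versions, annotation release and strand setting are not given in the sources used here. Without strand, reads of antisense partners cannot be told apart, and 16 members overlap another gene. Lines for reads given to no gene stayed out of library sizes: multiply aligned reads were 26.08% to 43.33%, those outside any gene 8.54% to 11.19%, and ambiguous ones 3.3% to 6.03%. Symbols were found for 42462 genes and not for 1167.

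Tests used edgeR 4.0.16 in R 4.3.3 (filterByExpr, TMM factors, quasi-likelihood, group as the only term) over all genes, with Benjamini-Hochberg adjustment and a threshold of 0.05. The comparisons within total RNA and within IP used those 6 and 4 libraries, and the others all 10. SE is the log2 difference divided by the square root of F. The scripts were tested on simulated data. Exon lengths came from GENCODE vM21 (GRCm38), near-identical stretches from blastn 2.17.0 and promoters from RefSeq. DESeq2 1.42.0 and limma 3.58.1 were alternatives, with other scalings, no filter, a replicate block and libraries left out.

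Members and gene lists were chosen with earlier results of these data known, so no list has a test. Values in every library are given for the catalytic subunits, Psma8, Psmb11 and Psmd14. For Psmd2 the KO total RNA values are left out, and for Psmd4 all total RNA values. The 6 members of smallest p in total RNA and in the IP have the library values of that comparison. For the interaction estimates alone are given, and Psmd13 has no library value here. Up to 4 called members in each direction have values in the IP comparisons that called them, apart from Psmd2 as stated. Of the other pathway genes, those named have the smallest p of their list or are Nfe2l1, Pomp and the immunoproteasome genes. Psmc5, Psma6, Psma3, Psmb3 and Psmd5 are named as extremes of level by all exons, and Psma5 as one by longest transcripts. Protein sequences were not used here.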

Additional observations from a re-analysis of the deposited data

How the results depend on the processing

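No subunit was called between genotypes, in total RNA, in the IP or in the interaction, under any alternative run. In KO IP against total RNA 35 single values lost and 21 gained their call over all alternatives, and in WT 24 lost and 2 gained it. The IP libraries are shallow (917462 counts in KO IP library 1), which limits Psmb5 (12 counts there), and 2 libraries a group limit every IP statement. The causes of the shifts below were not tested.

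With library size alone, the total RNA medians were -0.06 (core) and -0.09 (regulatory), the IP core median 0.24 with 1 gene called, the KO IP over total RNA medians -0.28 and -0.34, and the interaction medians 0.19 and -0.02 with 0 genes called. The median of all genes moved as well, to -0.23, -0.16, 0.47 and -0.4 in that order. Relative to it the particles were at 0.17 and 0.14 in total RNA (0.18 and 0.14 with TMM). In KO IP over total RNA they were at -0.75 and -0.81 (-0.77 and -0.82 with TMM), and in the interaction at 0.59 and 0.38 (0.59 and 0.36). Summed CPM then in the IP was 999.7 for WT and 813.2 for KO over the core and 2177 and 2093 over the regulatory particle. Without the filter 64, 103 and 263 genes were called in total RNA, in the IP and in the interaction, and with DESeq2's Wald test 5, 57 and 17. In the IP limma-voom called 3, the robust fit 24 and the fit to all 10 libraries 1, and in the interaction limma-voom called 0, as did the fit without both KO total RNA library 1 and WT total RNA library 2. Longest transcripts moved the median level of all 36 members in WT total RNA (mean of 3 libraries) from 30.51 to 53.28 CPM per kb.

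Leaving out 1 library at a time gave a core median of -0.07 to 0.31 and a regulatory median of 0.03 to 0.22 in total RNA (both lowest without KO library 3), 13 to 146 genes and a regulatory median of 0 to 0.34 in the IP, core medians of -0.29 to -0.06 and regulatory medians of -0.5 to -0.31 for IP over total RNA in WT, 2148 to 5706 genes and 10 to 27 members called in KO, and in the interaction 0 to 1 genes and a core median of 0.31 to 0.71.

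The labels number the libraries 1 to 3 in each group. Deviations of same-numbered WT and KO libraries correlated at 0.1, -0.12 and -0.31 in total RNA and at -0.05 in the IP, and those of same-numbered IP and total RNA libraries at 0.12 and 0.1 in WT and 0.13 and 0.16 in KO. No label ties a number to an animal, so the numbers were not taken to pair libraries, although each IP library correlated best with the total RNA library of its own number and genotype. With 2 IP libraries a group, their deviations from the group mean are exact opposites. The correlations of IP library 2 are therefore those of IP library 1 with the sign turned, and are not separate evidence. With the replicate block 28 genes were called in the IP and 0 in the interaction, and no subunit in either. For IP over total RNA the block left 4526 genes and 12 members called in WT (14 without it) and 4515 genes and 19 members in KO (22 without it), where Psma4, Psma7 and Psmb4 lost their call at adjusted p = 0.0827, 0.0638 and 0.0635, and in WT Psmd9 and Psmd6 did at 0.0663 and 0.0588.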
